A study of Bos taurus with 8 samples.

Results

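Matrix metalloproteases (MMPs), ADAM and ADAMTS proteases and the tissue inhibitors of metalloproteases (TIMPs) were followed in the lungs of 4 cloned and 4 naturally conceived newborn calves. The genes were chosen by name alone, as bovine genes called MMP, TIMP, ADAM, ADAMTS or ADAMTSL followed by a number. Of 66 such genes, 35 were matched to 79 probes, and the other 31, ADAM17 among them, were not analysed here. A gene counted as measured when any of its probes was well above background on 4 or more of the 8 arrays, and its brightest such probe stood for it. This left 29 of the 35 genes, out of 9867 measured genes in all. ADAM2, ADAM22, ADAMTS18, MMP13, MMP20 and MMP27 fell short of that limit. Of the 29 genes, 26 were well above background in all the calves, which is 89.7%, against 93.1% of all measured genes.

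All the calves were Holstein, and the labels give their age as 4 days. The clones had respiratory failure and were sampled on death, whereas the normal calves were healthy and were killed as age-matched controls. RNA from whole lung was labelled with Cy3 and hybridised to 1-colour Agilent arrays, with 1 array per calf. The sources used here do not name the donor cells of the clones. Levels are log2 processed signals relative to the 75th percentile of the same array, so that 0 is that percentile and a difference of 1 is a 2-fold difference. Values of single calves are listed in the order of calves 1 to 4 of each group, and every difference is clones minus normal calves.

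All clones shared a slide and all normal calves another, so cloning, illness, the manner of death and the slide cannot be told apart. The 75th percentile set at 0 on the scale of levels was lower in every clone than in every normal calf. As a log2 signal it was 10.10 to 10.49 in clones and 10.59 to 10.89 in normal calves. Between 78.8% and 80.6% of the spots of a clone array were well above background, and 80.4% to 83.5% of those of a normal array. Whether the dimmer clone arrays lowered the number of clones with a dim probe well above background was not tested. The 10 spike-in controls were all higher in clones on this scale, by a median of 0.67, so a shift of all lung transcripts together is not measured. With all 8 calves 63 of 35636 probes (0.177%) passed an adjusted p of 0.05 by limma, and 2566 passed without clone 1 and 445 without clone 3. The median size of the difference from the normal mean over all genes was 0.428, 0.352, 0.573 and 0.366 in clones 1 to 4, largest in clone 3. All 7 measured genes of alveolar type II cells, SFTPC and SFTPB among them, were well above background in every calf. In whole tissue, fewer cells of a type and less RNA per cell cannot be told apart.

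Metalloproteases use a zinc ion in their active site to cut proteins outside the cell. Secreted and membrane-type MMPs cut collagens, elastin and other matrix proteins, ADAM sheddases release growth factors and receptors from the cell surface, and ADAMTS enzymes cut proteoglycans or trim procollagens, while TIMPs block the active site. In the newborn lung these proteins take part in the remodelling of alveolar walls, and most of the enzymes are made as inactive precursors, so that a transcript level is not an enzyme activity.

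Not one of the metalloproteases and inhibitors passed the test (0 of 29 by limma at an adjusted p of 0.05, against 0.182% of all measured genes). An unadjusted p under 0.05 was reached by 5 of the 29, or 17.2%, against 13.0% of all genes. ADAMTS12, ADAM12 and ADAMTS4 had higher levels in clones (3 genes, 10.3%, against 6.37%), and ADAMTS3 and MMP19 lower ones (2 genes, 6.9%, against 6.58%). The clones lay wholly outside the range of the normal calves in 3 of the 29 genes, which is 10.3%, against 9.87% of all genes. In ADAMTS12 and ADAMTSL4 they lay above it (6.9%, against 5.09%) and in ADAMTS3 below it (3.45%, against 4.78%). The probe that stood for ADAMTS3 was kept only through the normal calves, as it was at background in every clone. The place of ADAMTS3 in these counts therefore follows in part from that limit. Among 29 genes a single gene is 3.45%, so these shares lay within about 1 gene of those of all genes. A positive difference was seen in 16 of the 29 (55.2%, against 48.4%), and the median difference was 0.17, against -0.015 over all genes. That median was -0.11 without clone 1 and -0.40 with normexp background correction and 75th percentile centring, a setting that moved the median of all genes to -0.12. When the arrays were given weights by their spread, 6 of the 29 passed (20.7%, against 32.4% of all genes), namely ADAMTS12, ADAMTS15, ADAMTS3, MMP16, MMP19 and TIMP2. With a trended and robust variance 0 of 29 passed, against 0.517% of all genes.

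**Figure D1:**
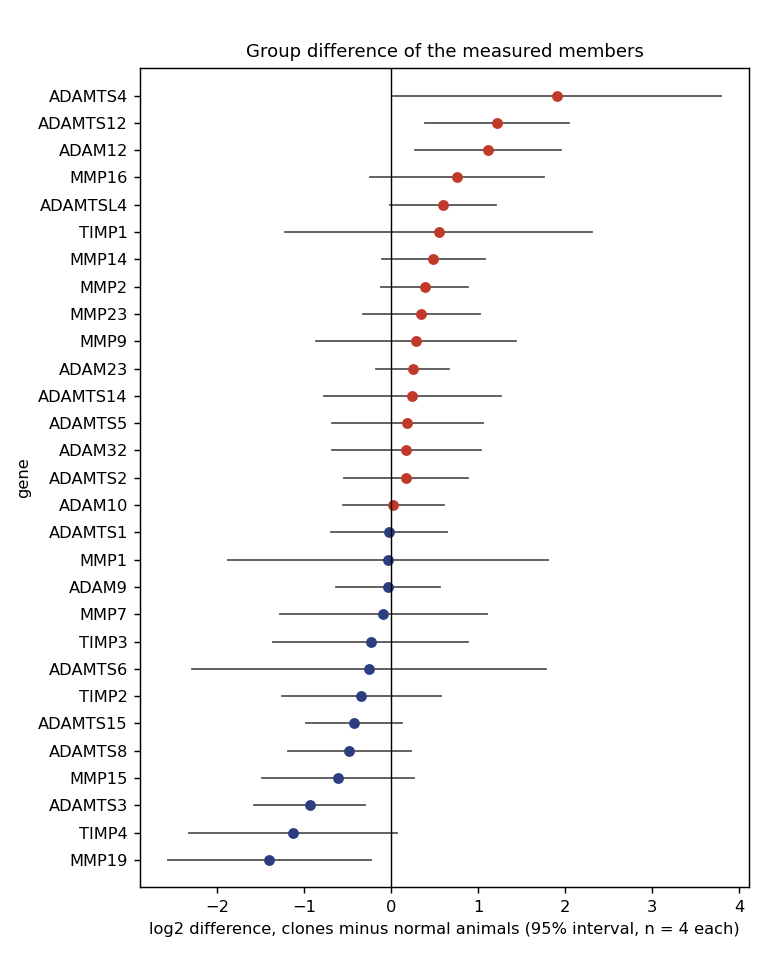
Log2 difference between clones and normal calves for each of the 29 measured genes, on the horizontal axis, with its 95% interval from limma (n = 4 calves per group). ADAMTS4 lies farthest to the right, at 1.91, and MMP19 farthest to the left, at -1.40, and the intervals of all but 5 genes include 0.

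The clones differed more among themselves than the normal calves did. The SD among clones exceeded that among normal calves in 27 of the 29 genes, MMP2 and ADAM23 being the exceptions, which is 93.1%, against 91.1% of all genes. The median SD of the 29 genes was 0.74 in clones and 0.26 in normal calves, and over all genes it was 0.53 and 0.16. For 15 of the 29 genes (51.7%, against 56.5% of all genes) some clones lay above every normal calf while others lay below every one. In 0 of the 29 did all 4 clones lie inside the normal range, against 1.84% of all genes. A small difference between group means therefore often stood for clones on both sides of the normal calves.

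**Figure D2:**
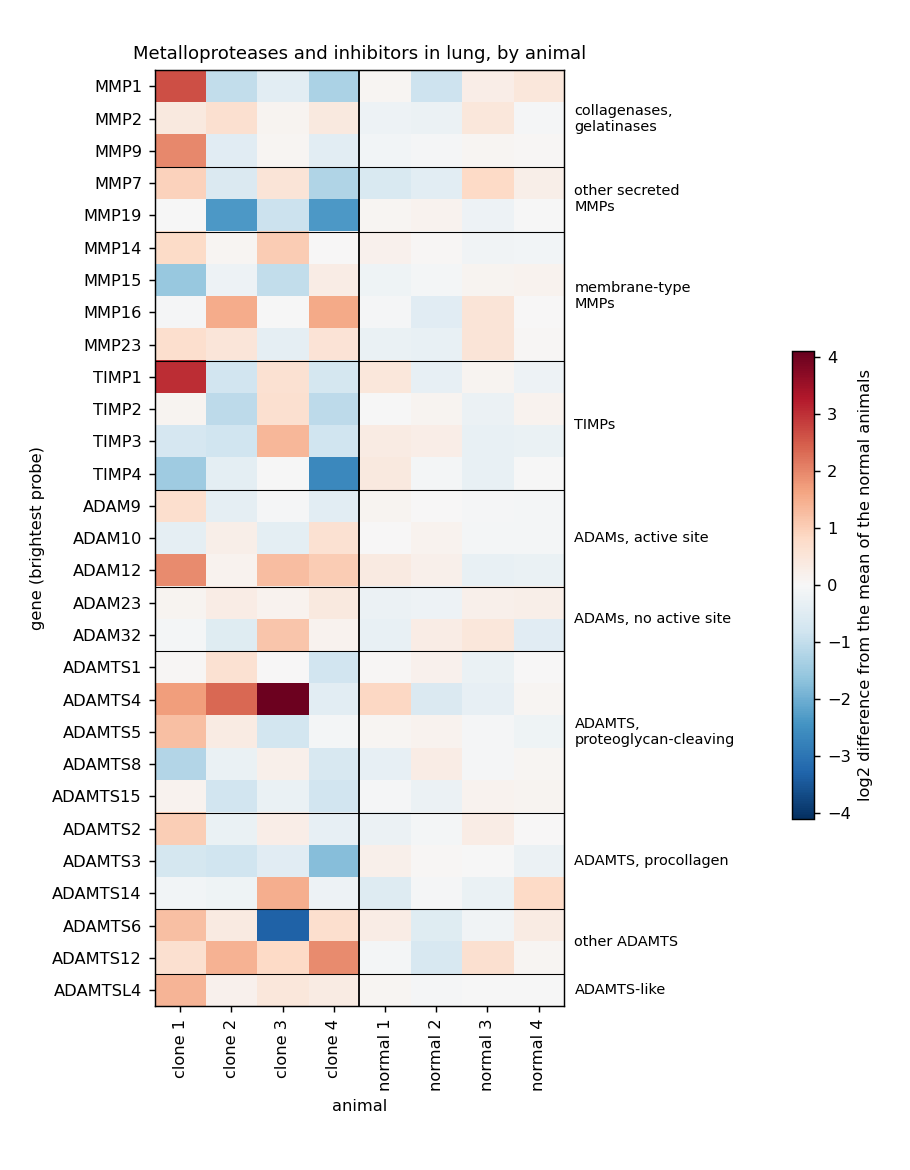
Level of each measured gene in each calf, as the log2 difference from the mean of the 4 normal calves (colour), with genes in rows by role and calves in columns. The normal columns are pale, while single clones have strong colours, such as TIMP1 in clone 1 (3.03), ADAMTS4 in clone 3 (4.01) and ADAMTS6 in clone 3 (-3.31).

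Among the 4 inhibitors, 3 had a negative and 1 a positive difference, and 0 passed the test. TIMP1, an inhibitor made by many cell types, read 6.23, 2.43, 3.83 and 2.49 in clones, against 3.65, 2.85, 3.31 and 2.98 in normal calves. Clones 1 and 3 lay above all the normal calves and clones 2 and 4 below them. The means differed by 0.55 (SE 0.77, 95% interval -1.22 to 2.31, adjusted p = 0.815), and by -0.28 without clone 1. Clone 1 alone was 3.03 above the normal mean. The second TIMP1 probe put each clone on the same side of the normal calves, with 4.33 in clone 1 and 1.07 to 1.85 in normal calves.

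TIMP2, an inhibitor that also takes part in the activation of MMP2 at the cell surface, read 5.58, 4.37, 6.13 and 4.40 in clones. In normal calves it kept to 5.22 to 5.59. Clones 2 and 4 were below every normal calf by more than the whole range of the normal group, clone 3 was above it, and clone 1 was within it. The mean difference of -0.34 (SE 0.40, interval -1.25 to 0.57, adjusted p = 0.77) was -0.093 without clone 2, -0.10 without clone 4 and -0.68 without clone 3. Its 3 probes gave -0.34, -0.61 and -0.35.

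TIMP3, the inhibitor that binds to the matrix, was at 2.02, 1.91, 4.08 and 1.90 in clones and at 3.05, 2.98, 2.39 and 2.42 in normal calves. Clones 1, 2 and 4 were below the normal range and clone 3 was above it, on each of its 3 probes. The means differed by -0.24 (SE 0.49, adjusted p = 0.883). With 1 calf left out that value ran from -0.77 without clone 3 to -0.083, -0.046 and -0.043, close to 0, without clones 1, 2 and 4.

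TIMP4, an inhibitor with a narrower range of tissues, had the largest difference of the 4. Its levels were 1.09, 2.14, 2.54 and -0.093 in clones and 2.94, 2.47, 2.25 and 2.53 in normal calves. Clones 1, 2 and 4 were below every normal calf and clone 3 was among them, so the groups overlapped. The difference of -1.13 (SE 0.53, interval -2.33 to 0.07, adjusted p = 0.411) was -0.63 without clone 4 and -1.50 without clone 3, and its second probe gave -1.20.

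In clones 2 and 4 all 4 inhibitors were lower than in every normal calf. Clones 1 and 3 had no such shared direction. The mean level of 10 macrophage genes was 1.00 and 1.06 in clones 2 and 4, 2.10 and 2.64 in clones 1 and 3, and 2.22 to 2.35 in the normal calves. All 10 genes, of 14 listed, were well above background in every calf. Most of the genes did not follow that order: only CD163, CD14 and CD68 had clones 2 and 4 as their lowest calves. C1QA and C1QB were lowest in clone 1, at 4.70 and 3.84. For CSF1R, VSIG4, MSR1, CTSS and FABP4 another clone or a normal calf was as low as clone 2 or clone 4, or lower. The part of the 10 macrophage genes in the levels of the inhibitors was not tested.

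**Figure D3:**
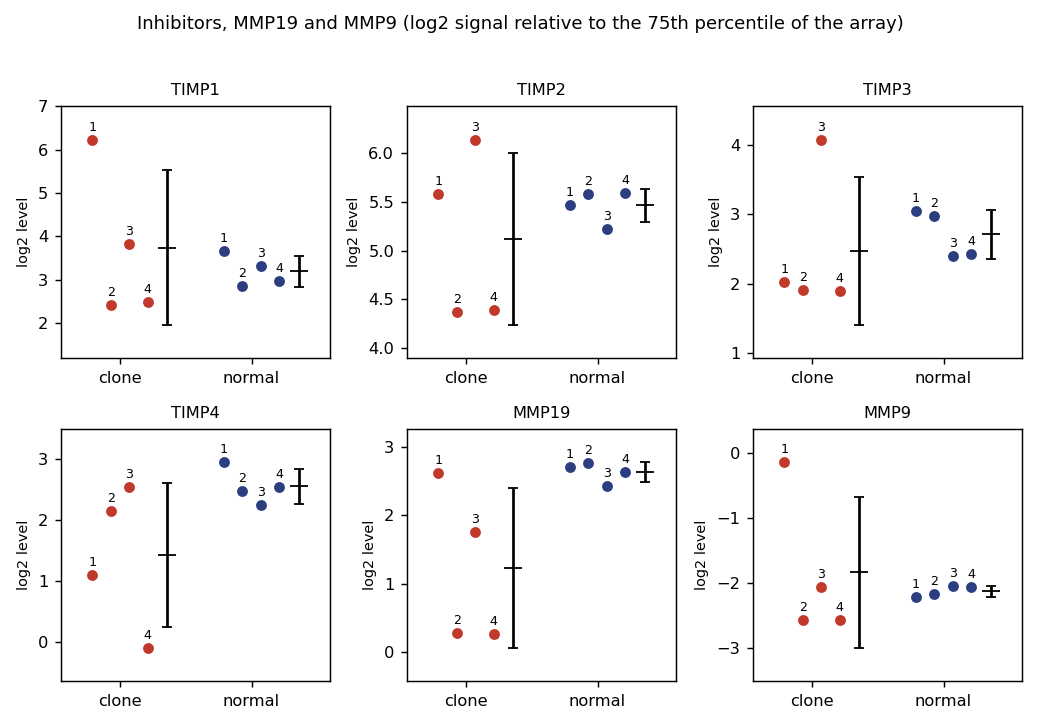
Log2 level of the 4 TIMP genes, MMP19 and MMP9 in each calf (points, numbered by calf), with the mean and SD of each group at the right of its points (n = 4). Clones 2 and 4 lie below all the normal calves in each of the 6 panels, while clone 1 lies far above them for TIMP1 (6.23) and MMP9 (-0.14).

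Collagenases and gelatinases were represented by MMP1, MMP2 and MMP9. MMP2, the gelatinase of fibroblasts and other stromal cells, read 1.37, 1.63, 1.07 and 1.37 in clones, against 0.78, 0.73, 1.45 and 0.94 in normal calves. Clone 2 was above every normal calf on this probe, and the other clones were within the normal range, whose highest value was that of normal calf 3. The means differed by 0.38 (SE 0.22, interval -0.11 to 0.88, adjusted p = 0.507). The 4 probes of MMP2 gave 0.34 to 0.70, and on the one with 0.70 the groups did not overlap (adjusted p = 0.166).

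MMP9, the gelatinase of neutrophil granules that macrophages also make, read -0.14, -2.57, -2.05 and -2.57 in clones. The normal calves kept within -2.22 to -2.04. Clone 1 was 1.98 above the normal mean, clones 2 and 4 were below every normal calf, and clone 3 was within their range. The mean difference was 0.29 (SE 0.50, interval -0.86 to 1.43, adjusted p = 0.857), and without clone 1 it was -0.28. The second, dimmer MMP9 probe exceeded background clearly in 1 of 4 clones and 4 of 4 normal calves. Its measured difference of -0.80 had the other sign. The mean level of 16 neutrophil genes, of 19 listed, was -0.45, -2.54, -0.92 and -2.79 in clones and -1.10 to -0.15 in normal calves, and 12 of the 16 were well above background in every calf. Of the 16, 13 had a negative and 3 a positive difference. An unadjusted p under 0.05 came with lower levels in clones in 7 (against 6.58% of all genes) and higher in 1 (against 6.37%). After adjustment 0 passed. In clone 1, FCGR3A, ELANE, CXCR2, CATHL5 and CATHL6 were below every normal calf, and LTF, S100A8, S100A9 and S100A12 above. The other genes were within the normal range there. The part of the 16 neutrophil genes in the MMP9 level was not tested.

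Single calves are given for MMP1, MMP7, ADAMTS2, ADAMTS6 and ADAMTS14 below although the rule for named genes did not ask for it, and this was chosen after their values were seen. MMP1, the interstitial collagenase, read -1.10, -4.75, -4.16 and -5.03 in clones and -3.63, -4.56, -3.44 and -3.26 in normal calves. Clone 1 was 2.63 above the normal mean, clones 2 and 4 were below every normal calf, and clone 3 was within their range. The means differed by -0.033 (SE 0.81, interval -1.87 to 1.80, adjusted p = 0.99), and by -0.92 without clone 1. Clone 1 had the highest reading of the 8 calves for each of TIMP1, MMP9 and MMP1. It was also the highest of the 8 in the mean of 8 proliferation genes, which was 0.48, -1.85, -2.96 and -1.19 in clones and -4.31 to -2.58 in normal calves, and the part of these genes was not tested. All 8, of 11 listed, were well above background in every calf, 7 of them had an unadjusted p under 0.05, higher in clones (against 6.37% of all genes), and 0 passed after adjustment.

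The other secreted MMPs measured were MMP19 and MMP7. MMP19, an MMP of vessel walls and macrophages, read 2.63, 0.27, 1.76 and 0.26 in clones, against 2.70, 2.76, 2.44 and 2.63 in normal calves. The normal calves hardly differed, clone 1 was among them, clone 3 was below them, and clones 2 and 4 were lower still. The mean difference was -1.40 (SE 0.51, interval -2.56 to -0.24, a 2.64-fold lower level, adjusted p = 0.291). Its 3 probes gave -1.40, -1.46 and -1.59. Without clone 1 the difference was -1.86 with an adjusted p of 0.0341 by limma, and MMP19 was then the only one of the 29 to pass (3.45%, against 7.18% of all genes). Across the alternatives its adjusted p was between 0.000961 and 0.657 and its difference between -2.25 and -1.08. The mean level of the macrophage genes, given with the inhibitors, was also lowest in clones 2 and 4. Among the single macrophage genes this held only for CD163, CD14 and CD68. The part of the macrophage genes in the MMP19 level was not tested.

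MMP7, the matrilysin of epithelial cells, varied widely in both groups. It read -2.08, -3.63, -2.51 and -4.28 in clones and -3.66, -3.46, -2.22 and -2.79 in normal calves. Their means differed by -0.09 (SE 0.52, interval -1.28 to 1.10), and a second, dimmer probe gave -1.37 (adjusted p = 0.341). On the brighter probe the sign turned without clone 2 (0.079), clone 4 (0.29) or normal calf 3 (0.18). Clone 1 was above every normal calf on the brighter probe but below every one on the dimmer, at -6.31.

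Of the 4 membrane-bound MMPs, 3 had a positive and 1 a negative difference. MMP14, the membrane-type enzyme that activates MMP2 and cuts fibrillar collagen, read -0.79, -1.48, -0.53 and -1.54 in clones, against -1.38, -1.51, -1.70 and -1.68 in normal calves. Clones 1 and 3 were above every normal calf and clones 2 and 4 were within the normal range. The difference of 0.48 (SE 0.26, interval -0.11 to 1.07, adjusted p = 0.483) was 0.30 without clone 3.

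MMP16, another membrane-type enzyme, had other clones on top. It read -4.29, -2.72, -4.27 and -2.70 in clones and -4.30, -4.73, -3.73 and -4.24 in normal calves. Clones 2 and 4 were above every normal calf by more than 1 unit, and clones 1 and 3 were within the normal range. The difference was 0.75 (SE 0.44, interval -0.25 to 1.75, adjusted p = 0.518), with 0.60 and 0.61 on its other probes in the fit. It was 0.49 without clone 2 and likewise without clone 4, and with normexp and 75th percentile centring its sign turned, to -0.40.

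MMP15, also of the membrane type, was at 0.18, 1.55, 0.73 and 2.06 in clones and at 1.56, 1.66, 1.85 and 1.90 in normal calves. Clones 1, 2 and 3 were below the normal range, clone 2 by a small margin, and clone 4 was above it. The group means were apart by -0.61 (SE 0.38, interval -1.48 to 0.26, adjusted p = 0.549), by -0.30 without clone 1 and by -0.92 without clone 4. The mean level of 10 endothelial genes, of 11 listed, was 0.95, 2.13, 2.48 and 2.27 in clones and 2.28 to 2.56 in normal calves. All 10 were well above background in every calf. In clone 3, PECAM1, CDH5, CLDN5, TEK, TIE1 and ERG were above every normal calf, CA4, KDR and EMCN below, and ESAM within their range. The part of the 10 endothelial genes in the MMP15 level was not tested. MMP23, a membrane-bound MMP of different structure, differed by 0.35 (SE 0.29, interval -0.33 to 1.02), by 0.58 without clone 3 and by 0.52 without normal calf 3.

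ADAM9, ADAM10 and ADAM12 keep the protease active site. ADAM12, a protease of mesenchymal and growing tissue, read -2.68, -4.48, -3.35 and -3.57 in clones, against -4.27, -4.43, -4.93 and -4.89 in normal calves. Clones 1, 3 and 4 were above every normal calf and clone 2 was among them. The difference was 1.11 (SE 0.37, interval 0.27 to 1.95, a 2.16-fold higher level, adjusted p = 0.253) on its single probe, and with normexp and 75th percentile centring its sign turned, to -0.10.

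ADAM10, the sheddase of Notch receptors and cadherins, read 0.56, 1.15, 0.51 and 1.54 in clones and 0.93, 1.07, 0.83 and 0.84 in normal calves. Clones 2 and 4 were above and clones 1 and 3 below all the normal calves, so that the means differed by 0.024 (SE 0.25, interval -0.56 to 0.60, adjusted p = 0.979), a sign that turned without clone 2 (-0.046), clone 4 (-0.18), normal calf 3 (-0.0041) or normal calf 4 (-0.0017). ADAM9, another sheddase, differed by -0.037 (SE 0.26, interval -0.63 to 0.56), and this sign turned without clone 2 or clone 4 and in 3 of the other settings.

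ADAM23 and ADAM32 lack the catalytic residues. ADAM23, an adhesion protein best known from neurons, read -3.46, -3.27, -3.44 and -3.18 in clones and -3.82, -3.78, -3.38 and -3.35 in normal calves. Clones 2 and 4 were above all the normal calves and the other clones were within their range. The difference was 0.25 (SE 0.18, interval -0.17 to 0.67, adjusted p = 0.623), or -0.49 with normexp and 75th percentile centring. A second, dimmer probe in the fit gave 0.33, with clones 2, 3 and 4 above all the normal calves and clone 1 below them. ADAM32, mainly known from the testis, was near background, above it in 2 of 4 clones and 3 of 4 normal calves, and differed by 0.17 (SE 0.38, interval -0.69 to 1.03).

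Of the 5 ADAMTS enzymes that cut proteoglycans, 2 had a positive and 3 a negative difference. ADAMTS4, an aggrecanase induced by inflammatory cytokines, read 3.11, 3.76, 5.42 and 0.97 in clones, against 2.26, 0.80, 1.08 and 1.48 in normal calves. Clones 1, 2 and 3 were above every normal calf, clone 3 by more than 3 units, and clone 4 was among the normal calves. The difference was 1.91 (SE 0.83, interval 0.024 to 3.79, a 3.75-fold higher level, adjusted p = 0.373). Its 4 probes gave 1.22 to 2.02. On a dimmer probe clone 4 was below every normal calf, at -2.93 against -2.68 to -2.20. It was also below them on the dimmest, at -6.28 against -5.88 to -4.41, a probe well above background in 3 of 4 clones. The brightest gave 1.21 without clone 3 and 2.69 without clone 4.

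ADAMTS1, which cuts versican and aggrecan, read 5.53, 6.12, 5.49 and 4.70 in clones and 5.55, 5.68, 5.23 and 5.50 in normal calves. Clone 2 was above and clone 4 below the normal range, on each of its 3 probes. The means differed by -0.028 (SE 0.29, interval -0.69 to 0.64, adjusted p = 0.979), a sign that turned without clone 4 (0.23) or normal calf 2 (0.036) and in 3 of the other settings. The dimmer probes of ADAMTS1 gave -0.52 and -0.040. ADAMTS5, the other main aggrecanase, differed by 0.19 (SE 0.38, interval -0.69 to 1.06), or by -0.17 without clone 1 and -0.17 with normexp and 75th percentile centring.

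ADAMTS8, an enzyme known for its expression in lung, was at -4.38, -3.43, -2.95 and -3.84 in clones and at -3.50, -2.87, -3.20 and -3.11 in normal calves. Clones 1 and 4 were below the normal range and clones 2 and 3 were within it. The difference of -0.48 (SE 0.31, interval -1.19 to 0.23, adjusted p = 0.562) was -0.24 without clone 1. ADAMTS15, a related proteoglycanase, read -3.75, -4.67, -4.16 and -4.67 in clones, against -3.93, -4.11, -3.73 and -3.76 in normal calves. Clones 2, 3 and 4 were below every normal calf and clone 1 was among them, with a difference of -0.43 (SE 0.24, interval -0.98 to 0.13, adjusted p = 0.507). A second, dimmer probe was well above background in 4 of 4 normal calves and 0 of 4 clones, with a measured difference of -0.45 (adjusted p = 0.268). It entered the fit only through the normal calves, so it adds no support to the brighter probe.

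**Figure D4:**
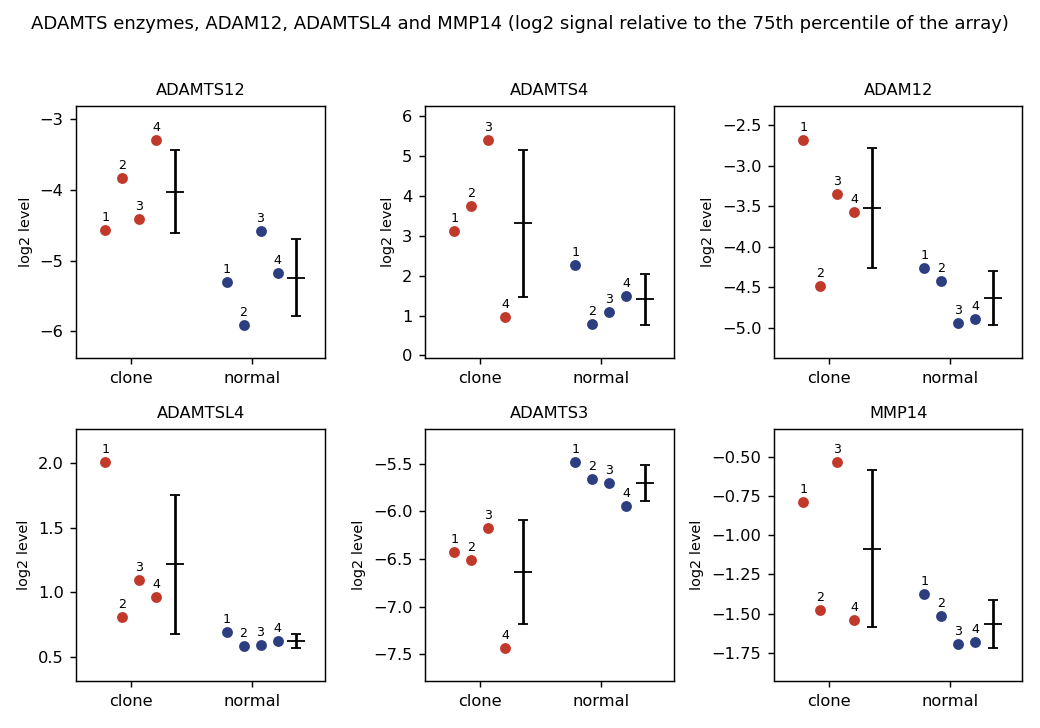
Log2 level of ADAMTS12, ADAMTS4, ADAM12, ADAMTSL4, ADAMTS3 and MMP14 in each calf (points, numbered by calf), with the mean and SD of each group at the right of its points (n = 4). The clones lie above all the normal calves for ADAMTS12 and ADAMTSL4 and below them for ADAMTS3, whereas ADAMTS4 spans 0.97 to 5.42 among the clones.

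ADAMTS2, ADAMTS3 and ADAMTS14 remove the amino-terminal propeptide of procollagens, and ADAMTS3 also activates the lymphatic growth factor VEGFC. ADAMTS3 read -5.49, -5.66, -5.70 and -5.94 in normal calves, and stood well above background in 4 of 4. It did so in 0 of 4 clones, whose readings were -6.42, -6.51, -6.17 and -7.43. Every clone was below every normal calf, but the probe entered the fit only through the normal calves, so a gap in this direction follows in part from the limit on signal and supports nothing by itself. On this probe and the scale used here, a bound on the gap was 1.53-fold, lower in clones. It is a minimum only if the floor set for each clone holds for this probe, which was not tested. With normexp and quantile normalization, however, the fitted log2 difference was -0.15, a smaller gap than that bound. That bound sets the normal mean against the higher, in each clone, of the probe's reading and a floor. The floor is the dimmest signal well above background of any probe on that array. The measured means, -5.70 ± 0.19 in normal calves and -6.64 ± 0.55 in clones (SD, n = 4 each), differed with an adjusted p of 0.219 by limma, which does not test the bound. A second probe, clearly over background in 1 of 4 clones and 4 of 4 normal calves, gave -1.07, and there clone 3 was higher than the normal calves.

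ADAMTS2, the main enzyme for type I procollagen, differed by 0.17 (SE 0.31, interval -0.54 to 0.88). On this probe clone 1 had the highest reading, 1.56 against 0.30 to 0.85 in normal calves, and without it the difference was -0.11. A second, dimmer probe, well above background in every calf, gave 0.017. There clone 1 was the lowest of the calves, at -5.15, and clone 3 the highest, at -3.59, against -4.81 to -4.35 in normal calves. ADAMTS14 differed by 0.24 (SE 0.45, interval -0.78 to 1.26). Clone 3, at -3.61, stood above the other 7 calves, and without it the difference was -0.17.

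Of the remaining ADAMTS enzymes, ADAMTS12 had the smallest p of the 29 genes. ADAMTS12, which cuts cartilage oligomeric matrix protein, read -4.57, -3.82, -4.41 and -3.29 in clones, against -5.31, -5.91, -4.58 and -5.17 in normal calves. The groups did not overlap, although clone 1 was close to normal calf 3. The difference was 1.22 (SE 0.36, interval 0.39 to 2.05, a 2.33-fold higher level, adjusted p = 0.218). It was 0.97 to 1.44 with any 1 calf left out, but with normexp and 75th percentile centring its sign turned, to -0.42. With normexp and quantile normalization it was 0.42. The probe was dim, although well above background in every calf. ADAMTS6, which takes part in the assembly of fibrillin microfibrils, was at -8.55 in clone 3, not well above background there, and at -4.00, -4.89 and -4.55 in clones 1, 2 and 4. The normal calves lay at -5.75 to -4.90. Its difference of -0.25 (SE 0.89, interval -2.29 to 1.78) was 0.77 without clone 3.

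ADAMTSL4 is a secreted protein without protease activity that binds fibrillin microfibrils. It read 2.01, 0.81, 1.09 and 0.96 in clones, against 0.70, 0.58, 0.60 and 0.62 in normal calves. All the clones were above all the normal calves, clone 1 by the most. The difference was 0.59 (SE 0.27, interval -0.012 to 1.20, adjusted p = 0.39), and 0.33 without clone 1. The groups were also apart on its second probe (0.51) and overlapped on its dimmest (0.35).

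Counted by calf, the 29 genes had no common direction in the clones. Clone 1 was above every normal calf in 14 genes and below every one in 6, which is 48.3% and 20.7%, against 40.0% and 36.9% of all genes. Clone 4 had the opposite balance, above in 9 and below in 14, or 31.0% and 48.3%, against 36.7% and 35.9% of all genes. Clone 2 was above in 10 and below in 13 (34.5% and 44.8%, against 34.0% and 37.9%), and clone 3 was above in 10 and below in 8 (34.5% and 27.6%, against 39.2% and 41.1%). These counts use the brightest probe of each gene. For ADAMTS2 and MMP7, counted above in clone 1, a dimmer probe put clone 1 below every normal calf. The median difference from the normal mean over the 29 genes was 0.39, -0.19, 0.098 and -0.34 in clones 1 to 4, and over all genes it lay between -0.028 and 0.021.

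**Figure D5:**
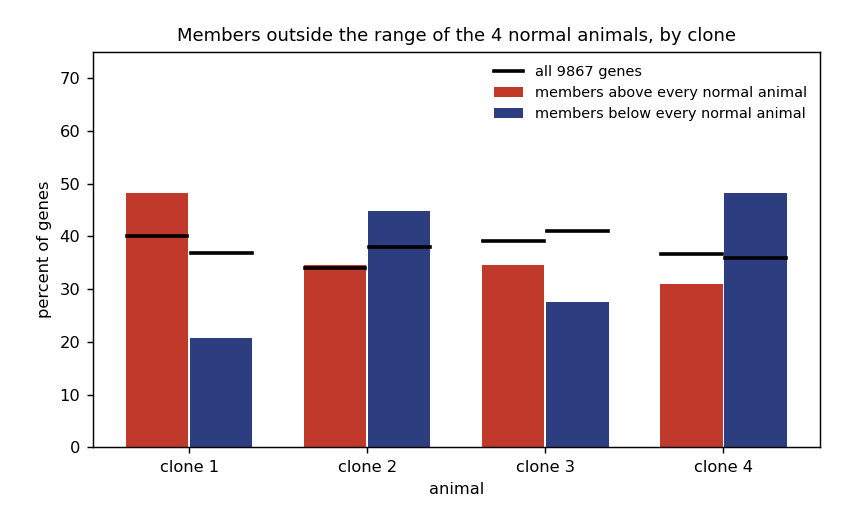
Percent of the 29 measured genes that lay above (red) or below (blue) all 4 normal calves in each clone, with a black line for the same share over all 9867 measured genes. Clone 1 has 48.3% above and 20.7% below, and clone 4 has 31.0% above and 48.3% below.

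Genes that act with these proteases were read from lists by role, and 0 of their measured genes passed the test. Over all genes, 48.4% had a positive difference, and 6.37% had an unadjusted p under 0.05 with higher and 6.58% with lower levels in clones. Of 9 other inhibitors and inducers, 6 had a positive and 3 a negative difference, with a median of 0.027, and 2 had an unadjusted p under 0.05. These were PCOLCE and RECK. PCOLCE, an enhancer of the procollagen C-proteinase, read 1.65, 1.71, 0.29 and 1.91 in clones and -0.026 to 0.35 in normal calves, with clone 3 among them (difference 1.28, SE 0.35, adjusted p = 0.191). RECK, a membrane-anchored inhibitor of MMPs, read -5.31, -3.62, -3.05 and -3.55 in clones and -5.49 to -4.33 in normal calves, with clone 1 among them (difference 1.22, SE 0.49, adjusted p = 0.337). TFPI2, an inhibitor of plasmin, and SPOCK2, a matrix proteoglycan, differed by 0.75 and 0.73.

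Of 9 activators, the plasminogen system and the proprotein convertases, 7 had a positive and 2 a negative difference, with a median of 0.19. SERPINE2, an inhibitor of plasminogen activators and thrombin, was the only one with an unadjusted p under 0.05. It was at -1.78 to -1.20 in clones and -2.58 to -2.05 in normal calves, with no overlap (difference 0.68, adjusted p = 0.219). PLAUR, the urokinase receptor, read 2.99, 1.24, 3.54 and 0.43 in clones and 0.97 to 1.27 in normal calves, so that clones 1 and 3 were above them, clone 4 was below and clone 2 was among them (difference 0.90, adjusted p = 0.597). PLG, the precursor of plasmin, differed by -1.64 close to background, and FURIN, a convertase that activates membrane-type MMPs and ADAMs, by -0.33.

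Among 7 cofactors of ADAM10 and ADAM17, 4 differences were positive and 3 negative, with a median of 0.077, and 1 had an unadjusted p under 0.05. That was FRMD8, a partner of the iRhom proteins (0.78, adjusted p = 0.32), while the tetraspanin TSPAN15, which guides ADAM10, differed by 0.40. Of 10 shed ligands and receptors, 5 were positive and 5 negative, with a median of -0.24, and 3 had an unadjusted p under 0.05, all lower in clones. IL6R, the interleukin-6 receptor, was at -0.78 to 0.065 in clones and 0.28 to 0.43 in normal calves (difference -0.72, adjusted p = 0.204). CXCL16, a chemokine shed from the membrane, was at 3.41 to 4.53 and 4.65 to 4.88 (difference -0.72, adjusted p = 0.275). For both the groups did not overlap.

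Of 13 matrix substrates, 10 had a positive and 3 a negative difference, with a median of 0.53, and 5 had an unadjusted p under 0.05, all higher in clones, against the 6.37% of all genes. COL1A1 and COL3A1, chains of fibrillar collagens, differed by 1.27 and 0.76 (adjusted p = 0.172 and 0.263), and VCAN, the proteoglycan versican, by 1.27 (adjusted p = 0.228). FN1, fibronectin, was at 4.79 to 5.94 in clones and 3.88 to 4.73 in normal calves, without overlap (difference 1.02, adjusted p = 0.24). The mean level of 12 fibroblast genes, of 14 listed and all well above background in every calf, was 1.90, 2.31, 1.67 and 2.16 in clones and 1.41 to 1.81 in normal calves, and that list shares COL1A1, COL1A2, COL3A1 and DCN with the substrates. The part of fibroblasts in the levels of ADAM12, MMP2 and the substrates was not tested. The 5 other metalloproteases measured had a median difference of 0.12, and 0 had an unadjusted p under 0.05.

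Markers of further cell types gave these mean levels. Cartilage genes, 7 of 14 being measured, were at -5.42 to -4.91 in clones and -5.16 to -4.26 in normal calves, and 3 of the 7 were well above background in every calf. Smooth muscle genes lay at 1.82 to 2.85 and 2.34 to 2.74, genes of T and NK cells at -3.03 to -2.13 and -2.23 to -1.34, and ciliated cell genes at -2.70 to -1.31 and -1.74 to -0.75. Erythroid genes were at -4.39 to -2.79 and -4.47 to -3.75, and type II cell genes at 4.05 to 5.28 and 4.55 to 4.61. The part of these cells in the levels of the proteases was not tested.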

How the data were processed

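Each array was deposited as a scanner file. Per the file headers, the authors used Agilent Feature Extraction 10.7, which gave a background-subtracted processed intensity per spot. These intensities were not normalized between arrays. The authors' deposited table of log2 values served as an alternative.

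Control spots and outlier spots were left out, log2 intensity was centred on the 75th percentile of each array, and spots of a probe were averaged. No spot was saturated. Of 43653 probes, 23492 matched 1 symbol in a RefSeq table of ARS-UCD2.0 by accession. The arrays name Btau_3.1, so no coordinates are given. The 35636 probes well above background on 4 or more arrays were fitted together with limma 3.58.1 in R 4.3.3 (lmFit and eBayes, group as the only term, 2-sided), with Benjamini-Hochberg adjustment over all of them. The fit was tested on simulated data. Labels call the animals separate replicates, numbered 1 to 4 per group.

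Named genes were 10 fixed members, where measured, the 8 with the smallest p in each direction, and those at background throughout a group, with up to 4 genes of each pathway list. The members, lists and rules were chosen with earlier results of these data known. Normexp used the median signals, as an alternative added after the files were seen. No sequences are printed, and 1 gene of a pathway list is not reported here.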

Additional observations from a re-analysis of the deposited data

Results flagged for a closer look

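TIMP3 and ADAMTS14 each had a clone that stood apart from the other 3 by Dixon's criterion. TIMP3 was 4.08 in clone 3 and 1.90 to 2.02 in the other clones. ADAMTS14 was -3.61 in clone 3 and -5.32 to -5.22 in the other clones. These were 2 of 58 sets of 4 values examined, and chance gives about 1 in 20.

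Some probes were left out of the fit because they were well above background on fewer than 4 arrays, and 4 of them gave signals in clones and in 0 of 4 normal calves. A probe of MMP13, the collagenase of cartilage and bone, read -5.11 in clone 1, against -9.07 to -8.53 in normal calves. A dim probe of MMP1 read -5.27 in the same clone, against -9.13 to -7.03. One probe of ADAM23 read -3.66 in clone 2 and -3.29 in clone 4, -8.69 and -8.44 in clones 1 and 3, and -9.07 to -7.19 in normal calves. One probe of MMP16 read -6.40 in clone 1 and -5.92 in clone 2, where it was well above background, and -6.39 in clone 4 and -7.31 in clone 3, where it was not, against -8.39 to -7.03 in normal calves. These signals were not tested.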

How the results depend on the processing

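Of the 29 genes, 13 kept the sign of their difference in every alternative run for them (19, or 18 for ADAMTS3, which is not among the probes well above background on all 8 arrays) and 16 did not, and the cause of these changes was not tested. The 63 probes that passed became 0 with normexp and 75th percentile centring (2278 had an unadjusted p under 0.05), 25 with normexp and quantile normalization, 17 among probes well above background on all 8 arrays, 145 with a trended and robust variance and 11527 with array weights. With 1 calf left out they numbered 17 to 2566, the count being 2566, 445 and 32 when clone 1, 3 or 4 was omitted and 18, 23, 31 and 17 when normal calf 1, 2, 3 or 4 was. Of the 29 genes 6 passed with array weights, and 0 to 1 with a calf left out. Genes whose groups did not overlap, 3 in the report, numbered 1 with normexp and 75th percentile centring, 5 with normexp and quantile normalization, 1 with the mean of all probes of a gene, and 3 to 6 with a calf left out. The median difference of the 29 genes, 0.17, was -0.40 with normexp and 75th percentile centring, -0.11 with array weights, 0.046 with the mean of all probes, and -0.11 to 0.27 with a calf left out. Signs turned with normexp and 75th percentile centring for ADAMTS1 (0.14), MMP9 (-0.022), ADAM12 (-0.10), ADAM32 (-0.75), ADAMTS14 (-0.65), ADAMTS5 (-0.17), ADAMTS12 (-0.42), MMP16 (-0.40) and ADAM23 (-0.49). They turned with normexp and quantile normalization for MMP1 (0.15), ADAMTS6 (0.099) and ADAM9 (0.023), with array weights for ADAMTS1 (0.062), MMP9 (-0.38), TIMP1 (-0.54), ADAM32 (-0.093), ADAMTS14 (-0.37), ADAMTS6 (0.33) and ADAMTS2 (-0.26), and with the mean of all probes for MMP9 (-0.26). ADAM9 was 0.0091 with quantile normalization and 0.0081 in the authors' deposited table, and ADAMTS1 was 0.00016 with median centring. With a calf left out, differences ranged from -0.28 to 0.53 for MMP9, -0.28 to 0.98 for TIMP1, -0.92 to 0.39 for MMP1, -0.44 to 0.29 for MMP7, -0.28 to 0.10 for ADAM9, -0.18 to 0.17 for ADAM10, -0.15 to 0.40 for ADAM32, -0.25 to 0.23 for ADAMTS1, -0.11 to 0.34 for ADAMTS2, -0.17 to 0.50 for ADAMTS5, -0.75 to 0.77 for ADAMTS6 and -0.17 to 0.52 for ADAMTS14. The calf numbers did not pair the groups, since same-numbered calves had correlations of 0.092, 0.099, -0.20 and -0.099 in their deviations, and with the replicate block 13 probes and 0 of the 29 genes passed. The slide as a block was not run, because each slide holds 1 group. The number of arrays limits the precision. Genes not well above background in every calf (ADAM32, ADAMTS3 and ADAMTS6) are limited by their signal. ADAMTS12 and ADAMTS14 were well above background in every calf but also dim. Their means in normal calves were -5.24 and -5.10, against -5.24 for ADAMTS6.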
